A study of Mus musculus with 4 samples.

Results

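Blood flow over an endothelium exerts shear stress, and endothelial cells answer it with a known set of genes. These genes encode the flow sensor Piezo1, the flow-induced transcription factors Klf2 and Klf4, and effectors that act on vessel tone, permeability and inflammation. Of 10 listed genes (Klf2, Klf4, Nos3, Aqp1, Edn1, Ece1, Ptgs1, Hmox1, S1pr1 and Piezo1), 9 were matched by at least 1 probe set annotated to that symbol alone, which gave 12 probe sets of the 45037 non-control probe sets on the array. Ptgs1, which encodes the constitutive cyclooxygenase, was not analysed here. The list was named for flow, but no flow was measured in these animals, so the genes are described by their levels.

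The RNA came from the leaflets of the aortic and pulmonary valves of newborn mice, measured on 4 arrays. There were 2 pools of Cxcr7-/- neonates, which lack the CXCL12 receptor Cxcr7 (now Ackr3), and 2 pools of Control neonates, which were wildtype littermates. Each pool held 3 animals, and a mutant gave 4 to 6 leaflets where a wildtype gave 6. No allele design, Cre line, strain, sex or treatment was given, and no label tied a pool to a litter, so p-values measure the spread between pools. In whole leaflets, fewer cells of a type and less RNA per cell cannot be told apart. The signal of Ackr3 itself was 28.3 and 328 in Cxcr7-/- leaflets and 4936 and 5698 in Control leaflets.

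Fluid shear is known to act through Piezo1, a cation channel opened by membrane tension, and through a kinase cascade that ends at MEF2 factors on the Klf2 and Klf4 genes. Klf2 and Klf4 are known to raise Nos3, the endothelial nitric oxide synthase, and to lower Edn1, the precursor of the vasoconstrictor endothelin 1. In valve endothelium, flow and Klf2 are known to take part in the shaping of the leaflets before birth.

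Promoter sequence is shown for Aqp1, which had the smallest unadjusted p in limma of the 12 probe sets, and for the factor Klf2. It is also shown for Edn1 and Piezo1, which were lower in both Cxcr7-/- pools. The windows are the 250 bases before the annotated start, taken from RefSeq on GRCm38.p6 and written in the sense of the gene. Capitals mark matches, on either strand, to the MEF2 consensus, to CACCC (the core bound by Klf factors), to TGACNNNGC (the antioxidant response element) or to GAGACC (a shear stress response element). The Aqp1 window is chr6:55336049-55336298 on the plus strand, and the Klf2 window is chr8:72318812-72319061 on the plus strand. The Edn1 window is chr13:42301226-42301475 on the plus strand, and the Piezo1 window is chr8:122551330-122551579 on the minus strand.
Aqp1: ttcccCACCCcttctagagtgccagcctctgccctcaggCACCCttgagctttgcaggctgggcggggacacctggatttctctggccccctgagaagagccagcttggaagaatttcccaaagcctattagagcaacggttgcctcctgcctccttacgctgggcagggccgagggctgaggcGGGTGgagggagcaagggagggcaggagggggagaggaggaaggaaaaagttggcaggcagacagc
Klf2: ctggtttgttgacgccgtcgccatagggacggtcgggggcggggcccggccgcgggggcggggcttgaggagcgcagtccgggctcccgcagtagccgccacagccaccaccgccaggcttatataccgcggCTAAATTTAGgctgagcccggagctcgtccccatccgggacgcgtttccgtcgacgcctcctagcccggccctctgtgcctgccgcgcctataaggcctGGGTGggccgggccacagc
Edn1: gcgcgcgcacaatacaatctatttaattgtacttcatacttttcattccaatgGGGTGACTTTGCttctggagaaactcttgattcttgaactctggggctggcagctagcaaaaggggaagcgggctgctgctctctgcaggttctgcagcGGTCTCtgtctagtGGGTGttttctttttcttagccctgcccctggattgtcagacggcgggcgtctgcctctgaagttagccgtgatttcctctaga
Piezo1: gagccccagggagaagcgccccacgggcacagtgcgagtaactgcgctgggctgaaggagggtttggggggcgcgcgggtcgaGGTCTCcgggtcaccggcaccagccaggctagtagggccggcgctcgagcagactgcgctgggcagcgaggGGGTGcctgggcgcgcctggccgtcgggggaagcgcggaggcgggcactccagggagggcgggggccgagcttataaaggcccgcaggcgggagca

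The Aqp1 window held 3 CACCC matches, starting 245, 211 and 66 bases before the start, and no match to the other motifs. Klf2 held 1 MEF2 match that began 118 bases before its start, and 1 CACCC match. Edn1 held 2 CACCC matches, 1 antioxidant match and 1 GAGACC match, and one CACCC match shares bases with the antioxidant match. Piezo1 held 1 CACCC match and 1 GAGACC match. Over all 32851 promoter windows of the same length, 52.0% held CACCC, 2.92% the MEF2 consensus, 10.2% the antioxidant motif and 13.7% GAGACC. Matches to CACCC are therefore common, and each match describes letters in a window, not binding. Windows were found for 7 of the 10 listed genes. Klf4 held no match, and of the 4 Ece1 windows 3 held CACCC. Of these 3, 2 overlap and hold the same match.

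Aqp1, the water channel aquaporin 1 of capillary endothelium and red cells, had the highest positive log2 fold change of the 9 genes. It was higher in both Cxcr7-/- pools. The probe set read 16694 and 16907 in Cxcr7-/- leaflets, against 8766 and 5347 in Control leaflets. The Cxcr7-/- pools differed by 1.01-fold and the Control pools by 1.64-fold. Every Cxcr7-/- pool was at least 1.90-fold above every Control pool, and the widest of the 4 cross comparisons was 3.16-fold. This is a log2 fold change of 1.29 ± 0.27 (SE of the model, 2 pools a genotype), with an unadjusted p of 0.00146 and an adjusted p of 0.406 in limma over 22518 probe sets. It did not pass the adjusted threshold of 0.05, and it rested on 1 probe set.

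Leaving out Control replicate 1 gave Aqp1 a log2 fold change of 1.65, in a fit that held 1 Control pool, the one with the lower Aqp1 signal. Without Control replicate 2 the log2 fold change was 0.94. Red cells also make Aqp1, and their part in its value was not tested. Of 11 listed erythroid genes 7 were matched, and 3 of these were bright enough to test. All 3 had negative log2 fold changes, where 49.7% of all genes did. An unadjusted p under 0.05 was reached by 0 of them, against 7.96% of all genes. Summed signal over the 7 genes was 929 and 2213 in Cxcr7-/- leaflets and 2528 and 1526 in Control leaflets, and the genotypes overlapped. The alpha globin gene Hba-a1, below the brightness filter, read 17.7 and 39.8 in Cxcr7-/- leaflets and 109 and 16.5 in Control leaflets. That reading came from 1 probe set annotated to Hba-a1 alone. Probe sets annotated to several symbols were not used, and the listed beta globin genes were not matched. The level of globin RNA is therefore not known from it. Brighter erythroid genes were Alas2, at 497 and 858 in Cxcr7-/- leaflets and 664 and 898 in Control leaflets, and Slc4a1. The latter read 322 and 986 in Cxcr7-/- leaflets and 1203 and 437 in Control leaflets.

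Of the 12 aquaporin genes matched, 4 were bright enough to test. Beside Aqp1, Aqp8 read 1920 and 1389 in Cxcr7-/- leaflets and 1276 and 1277 in Control leaflets (0.35 ± 0.27, log2 fold change ± SE). The collecting duct channel Aqp2 read 184 and 173 in Cxcr7-/- leaflets against 118 and 144 in Control leaflets (0.39 ± 0.36), and the secretory gland channel Aqp5 was at -0.16 ± 0.39 with overlapping pools. The other 8 aquaporins were below the brightness filter.

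The 5 genes with profiles closest to Aqp1 over the 4 arrays were Pvr, Tpm3, Mastl, Vps50 and Qpct, at Euclidean distances of 0.05 to 0.16 between centred log2 profiles. Pvr, which encodes the poliovirus receptor family adhesion protein CD155, read 304 and 312 in Cxcr7-/- leaflets and 144 and 80.3 in Control leaflets. With 4 arrays many probe sets have similar profiles, so the likeness is a description only.

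**Figure D1:**
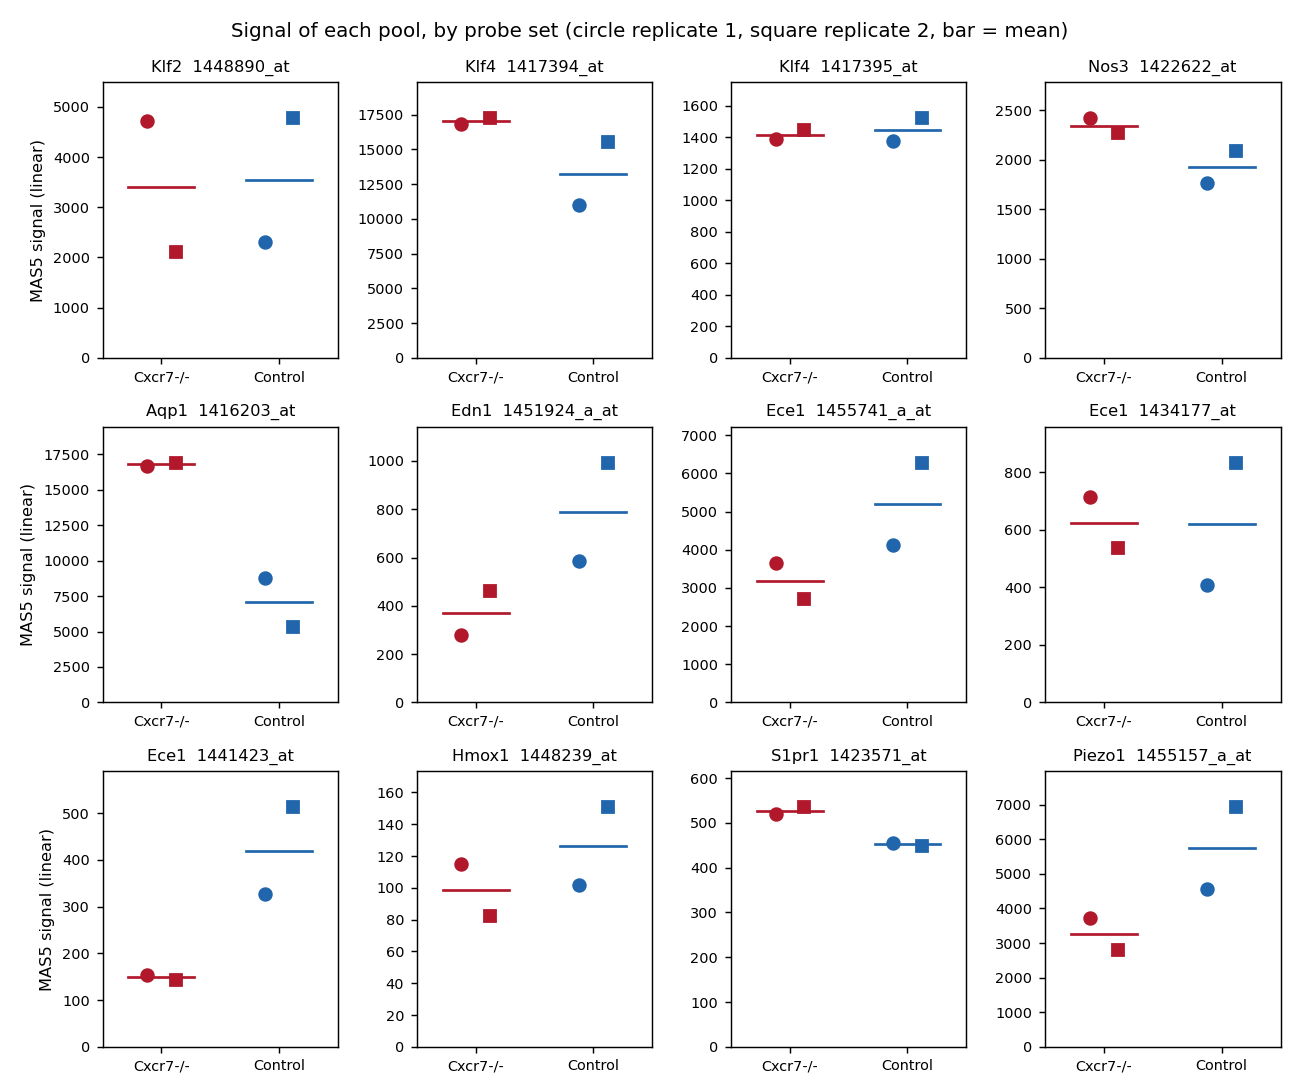
MAS5 signal on a linear axis from 0 for each of the 12 probe sets, with Cxcr7-/- pools in red left of Control pools in blue, circles for replicate 1, squares for replicate 2 and bars for the mean of 2 pools. The Aqp1 signals lie at 16694 and 16907 in Cxcr7-/- pools and at 8766 or below in Control leaflets, while Klf2 spans the same range in both genotypes.

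Klf2 and Klf4, the flow-induced factors, had different patterns. Klf2, the zinc finger factor that is most specific to flow in endothelium, read 4710 and 2102 in Cxcr7-/- leaflets and 2302 and 4774 in Control leaflets. Each genotype held 1 high and 1 low pool, so the genotypes overlapped completely. The Cxcr7-/- pools differed by 2.24-fold and the Control pools by 2.07-fold, which is wider than any other of the 9 genes. The log2 fold change was -0.07 ± 0.45, with an adjusted p of 0.968 in limma, and its sign turned with median centring (0.06).

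Klf4, the related factor that shares many endothelial targets with Klf2, had 2 probe sets. The brighter read 16862 and 17241 in Cxcr7-/- leaflets and 10994 and 15505 in Control leaflets, with both Cxcr7-/- pools above both Control pools by at least 1.09-fold. Its log2 fold change was 0.38 ± 0.23 with an unadjusted p of 0.138. Without Control replicate 2 it was 0.63, with an unadjusted p of 0.00977 and an adjusted p of 0.279 in limma, and without Control replicate 1 it was 0.14, with an unadjusted p of 0.506. The other Klf4 probe set read 1391 and 1445 in Cxcr7-/- leaflets and 1375 and 1521 in Control leaflets (-0.03 ± 0.25), and this sign also turned with median centring. The 2 probe sets therefore disagree on whether the pools separate.

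Nos3 and S1pr1 each had both Cxcr7-/- pools above both Control pools by a small margin, and neither passed the test. Nos3 read 2421 and 2274 in Cxcr7-/- leaflets and 1769 and 2087 in Control leaflets, a log2 fold change of 0.29 ± 0.25 with an unadjusted p of 0.279. S1pr1, the receptor for sphingosine 1-phosphate that holds endothelial junctions closed, read 519 and 535 in Cxcr7-/- leaflets and 455 and 448 in Control leaflets, with pools 1.03-fold apart in Cxcr7-/- and 1.02-fold apart in Control. Its log2 fold change was 0.21 ± 0.29 with an unadjusted p of 0.481. Both differences were smaller than the standard error of a typical probe set, 0.34 on the log2 scale.

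Hmox1, the inducible haem oxygenase that breaks haem down to biliverdin, was the dimmest of the 9 genes, at the 53.9th percentile of mean signal. It read 115 and 82.6 in Cxcr7-/- leaflets and 102 and 151 in Control leaflets, and the genotypes overlapped (-0.29 ± 0.41). The log2 fold change was -0.53 without Control replicate 1 and -0.05 without Control replicate 2, and it was -0.48 without Cxcr7-/- replicate 1 and -0.09 without Cxcr7-/- replicate 2. Macrophages, which also make Hmox1, had higher markers in Cxcr7-/- leaflets. All 13 measured macrophage genes had positive log2 fold changes, where 49.7% of all genes had negative ones. At an unadjusted p under 0.05, 8 were higher, where 3.93% of all genes were. The summed macrophage signal was 22237 and 20232 in Cxcr7-/- leaflets and 14655 and 11799 in Control leaflets, and its part in the Hmox1 value was not tested.

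In the endothelin pathway the ligand Edn1 and 2 of the 3 probe sets of its processing enzyme Ece1 were lower in both Cxcr7-/- pools, and the other Ece1 probe set was not. Edn1 read 280 and 460 in Cxcr7-/- leaflets, against 587 and 992 in Control leaflets. The pools of each genotype were 1.64-fold and 1.69-fold apart, and the closest pair across genotypes was 1.28-fold apart. The log2 fold change was -1.04 ± 0.38, with an unadjusted p of 0.0256 and an adjusted p of 0.454 in limma. It was -0.71 without Cxcr7-/- replicate 1 and -0.68 without Control replicate 2, at unadjusted p values of 0.191 and 0.103 in the same limma model. With median centring it was -0.91 with an unadjusted p of 0.0544.

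Ece1, the metalloprotease that cuts the endothelin precursor to the active peptide, had 3 probe sets. The brightest read 3643 and 2712 in Cxcr7-/- leaflets and 4136 and 6279 in Control leaflets (-0.69 ± 0.29, unadjusted p = 0.0437 in limma). A dim one read 155 and 143 in Cxcr7-/- leaflets and 327 and 513 in Control leaflets, a log2 fold change of -1.34 ± 0.36 with an unadjusted p of 0.00594. The third read 714 and 536 in Cxcr7-/- leaflets and 409 and 833 in Control leaflets, with overlapping pools and a log2 fold change of 0.08 ± 0.39. So 2 of the 3 probe sets had both Cxcr7-/- pools below both Control pools and 1 did not. The brightest was at -0.39 without Control replicate 2 (unadjusted p = 0.183) and -0.48 without Cxcr7-/- replicate 2 (unadjusted p = 0.267), both from limma, and its unadjusted p was 0.0550 without Cxcr7-/- replicate 1. The mean of the 3 probe sets gave -0.65 with an unadjusted p of 0.0675 in limma, and the unadjusted p of the brightest was 0.149 with median centring, 0.0718 with a replicate block and 0.0840 with no intensity trend.

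On the receptor side, Ednrb, the endothelin receptor of endothelium and neural crest, read 1624 and 1590 in Cxcr7-/- leaflets and 926 and 999 in Control leaflets, higher in both (0.73 ± 0.25, unadjusted p = 0.0216 in limma). Ednra was not analysed here. The second converting enzyme Ece2 was at -0.23 ± 0.37 with overlapping pools, and the endothelin-degrading protease Mme was at 0.30 ± 0.28. Edn2 and Edn3 were below the brightness filter.

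Piezo1, the mechanosensitive channel, read 3727 and 2803 in Cxcr7-/- leaflets, against 4549 and 6925 in Control leaflets. Both Cxcr7-/- pools were below both Control pools, by 1.22-fold at the closest and 2.47-fold at the widest. The log2 fold change was -0.79 ± 0.29, with an unadjusted p of 0.0251 and an adjusted p of 0.453 in limma. Without Control replicate 2 it was -0.49 (unadjusted p = 0.101 in limma), and without Cxcr7-/- replicate 2 it was -0.59 (unadjusted p = 0.179). The unadjusted p was 0.0941 with median centring and 0.0550 with no intensity trend. Among the 66 pairs of the 12 probe sets, Piezo1 and the brightest Ece1 probe set had the most similar profiles over the 4 arrays, at a distance of 0.10, and both were highest in Control replicate 2.

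**Figure D2:**
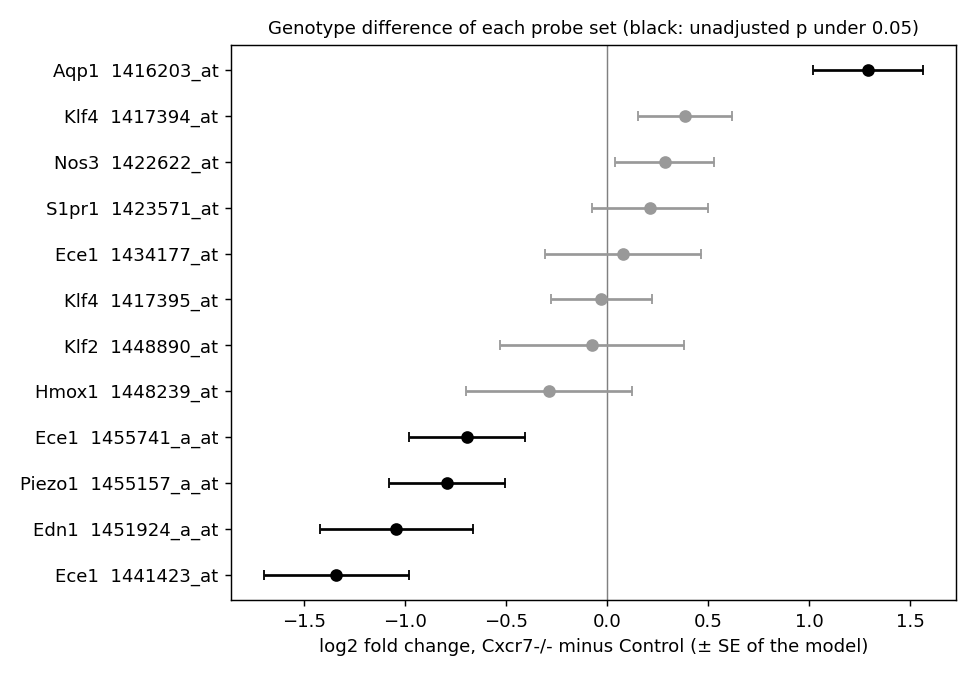
Log2 fold change of each of the 12 probe sets, Cxcr7-/- minus Control, with bars for ± 1 standard error of the limma model (n = 2 and 2 pools) and black points for an unadjusted p under 0.05. Among the black points only Aqp1, at 1.29, is on the higher side, and Edn1, Piezo1 and 2 of the 3 Ece1 probe sets lie between -0.69 and -1.34.

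Over the 12 probe sets, 5 had positive and 7 had negative log2 fold changes, where 51.8% of all 22518 probe sets were negative. An unadjusted p under 0.05 was reached by 5 of the 12, Aqp1 higher and 4 lower, where 10.1% of all probe sets did so, 3.94% higher and 6.18% lower. Of the 12, 8 had pools that did not overlap between genotypes, 4 higher and 4 lower, against 42.4% of all probe sets, 20.1% higher and 22.3% lower. No probe set passed at an adjusted p under 0.05, which was 0% of all probe sets. By gene, 5 of the 9 were negative, against 49.7% of 11260 genes. An unadjusted p under 0.05 was reached by 4 of the 9, 1 higher and 3 lower, against 7.96% of genes, 3.93% higher and 4.03% lower. Pools did not overlap for 7 of the 9, 4 higher and 3 lower, against 40.2% of genes, 21.1% higher and 19.1% lower. The median log2 fold change of the 9 genes was -0.07. It was 0.005 over all kept genes and -0.02 over all kept probe sets. The list was chosen with these results known, so its counts describe the genes and are not a test of them.

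Of 13 endothelial markers, 11 had negative log2 fold changes, where 49.7% of all genes did. At an unadjusted p under 0.05, 5 were lower, where 4.03% of all genes were. The median was -0.51. The summed endothelial signal was 16192 and 15863 in Cxcr7-/- leaflets and 22061 and 27582 in Control leaflets. Cldn5 was at -1.73 ± 0.26, Vwf at -0.83 ± 0.24 and Robo4 at -1.24 ± 0.41, each lower in both Cxcr7-/- pools. Others were nearly level: Pecam1, the adhesion molecule common to endothelium, read 204 and 247 in Cxcr7-/- leaflets and 226 and 204 in Control leaflets. Tek was at -0.07 ± 0.26. After median centring 8 of the 13 stayed negative, Tek not among them, and 3 were at an unadjusted p under 0.05 in limma. Of 12 heart muscle markers all had negative log2 fold changes, with a median of -1.13 and 9 at an unadjusted p under 0.05. Of 7 smooth muscle markers all were negative too, with a median of -0.84 and 5 at an unadjusted p under 0.05. The smooth muscle sum over 8 genes was 16441 and 21034 in Cxcr7-/- leaflets and 25923 and 34877 in Control leaflets, and for heart muscle it was 78275 and 113864 in Cxcr7-/- leaflets and 142794 and 193663 in Control leaflets. Their part in the values of Edn1, Ece1 and Piezo1 was not tested.

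Relative to the mean of the 13 endothelial markers of the same array, which was 0.56 lower on the log2 scale in Cxcr7-/- leaflets, each difference is raised by that amount. Piezo1 then differed from its Control mean by -0.06 and -0.40 in Cxcr7-/- leaflets, against -0.23 and 0.23 in Control leaflets. Ece1 differed by 0.05 and -0.31 in Cxcr7-/- leaflets and by -0.23 and 0.23 in Control leaflets, and Edn1 by -0.85 and -0.11 in Cxcr7-/- leaflets and by -0.30 and 0.30 in Control leaflets. All 3 overlapped between genotypes on that scale. Aqp1 was at 1.81 and 1.89 in Cxcr7-/- leaflets and at 0.43 and -0.43 in Control leaflets. Klf4, Nos3, S1pr1 and Aqp1 were higher in both Cxcr7-/- pools on that scale, but so were 60.3% of all probe sets, and 4.24% were lower, so nothing about these genes is read from that scale.

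A list of 20 measured genes held Klf2, Klf4, 6 other Klf factors and the kinases, MEF2 factors and regulators known to act on them. Of the 20, 15 had negative log2 fold changes, where 49.7% of all genes did, and the median was -0.27. An unadjusted p under 0.05 was reached by 1 of them, on the lower side, where 4.03% of all genes were. That gene was Krit1, a subunit of the cerebral cavernous malformation complex that restrains Klf2 and Klf4 in endothelium, at 340 and 715 in Cxcr7-/- leaflets and 886 and 1524 in Control leaflets (-1.20 ± 0.42). Mef2a, the factor that binds the MEF2 site, was at -0.41 ± 0.23 and Klf9 at -0.88 ± 0.52, the last with overlapping pools.

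Of 15 flow sensing genes other than Piezo1, 13 had negative log2 fold changes, where 49.7% of all genes did, with a median of -0.39. An unadjusted p under 0.05 was reached by 3 of the 15, 2 lower and 1 higher. Over all genes 4.03% were lower and 3.93% higher at that threshold. Heg1, the membrane partner of Krit1, read 1307 and 652 in Cxcr7-/- leaflets and 1798 and 2599 in Control leaflets (-1.21 ± 0.38). Kdr, the VEGF receptor of the junctional flow-sensing complex, was at -0.72 ± 0.29. Itgb1, the integrin beta 1 chain, was on the higher side with 2448 and 2208 in Cxcr7-/- leaflets and 1559 and 1126 in Control leaflets (0.80 ± 0.27, unadjusted p = 0.0188 in limma). Several of these genes, such as Kdr and Cdh5, are also among the 13 endothelial markers.

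Of 24 other genes that flow is known to raise or lower, 11 were positive and 13 negative, with 1 higher and 3 lower at an unadjusted p under 0.05. Over all genes 49.7% were negative, and 3.93% were higher and 4.03% lower at that threshold. Gja4, the connexin of arterial endothelium, read 656 and 608 in Cxcr7-/- leaflets and 1669 and 1946 in Control leaflets (-1.48 ± 0.26). Adm, the vasodilator peptide adrenomedullin, read 67.3 and 412 in Cxcr7-/- leaflets and 7350 and 1083 in Control leaflets, with wide spread within both genotypes (-3.86 ± 0.94). Timp3, a matrix-bound inhibitor of metalloproteinases, was at 0.64 ± 0.22. Thbd, the thrombin receptor that Klf2 is known to raise, was at -0.07 ± 0.27 with overlapping pools. It read 2426 and 3305 in Cxcr7-/- leaflets and 3344 and 2654 in Control leaflets. Within each genotype, the pool with the higher Klf2 signal had the lower Thbd signal.

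Around Nos3, 17 other nitric oxide genes had a median of -0.18. Of these, 0 reached an unadjusted p under 0.05, where 7.96% of all genes did. The arginine transporter Slc7a1 was at -0.46 ± 0.23, the cyclase subunit Gucy1a1 at -0.85 ± 0.44 and Ddah1, which removes a natural inhibitor of the synthase, at -0.47 ± 0.25. The caveolar protein Cav1, which holds the enzyme inactive, read 8998 and 10345 in Cxcr7-/- leaflets and 9177 and 10869 in Control leaflets.

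Of 9 measured prostanoid genes, 5 were positive, with 2 higher and 1 lower at an unadjusted p under 0.05. Over all genes 49.7% were negative, and 3.93% were higher and 4.03% lower at that threshold. Pla2g4a, the phospholipase that releases arachidonic acid, was at 1.03 ± 0.39, the prostaglandin-degrading enzyme Hpgd at 0.94 ± 0.39 and the prostaglandin D synthase Ptgds at -1.07 ± 0.44. Ptgis, the prostacyclin synthase, read 11923 and 12745 in Cxcr7-/- leaflets and 13316 and 16576 in Control leaflets (-0.27 ± 0.21).

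Beside S1pr1, 11 sphingosine 1-phosphate genes had a median of -0.09. Of these, 1 was lower at an unadjusted p under 0.05, where 4.03% of all genes were: the kinase Sphk1. It makes sphingosine 1-phosphate and read 220 and 217 in Cxcr7-/- leaflets and 317 and 574 in Control leaflets (-0.90 ± 0.37). The GTPase Rac1, a downstream effector, was at 0.45 ± 0.21, and Apom at -1.72 ± 0.95 with overlapping pools. Beside Hmox1, 15 haem and antioxidant genes had a median of 0.17. Of these, 1 was higher at an unadjusted p under 0.05, where 3.93% of all genes were. That gene was Cd163, the haemoglobin scavenger receptor of macrophages, at 1.10 ± 0.41. Hebp1 was at 1.14 ± 0.53 and the iron exporter Slc40a1 at 0.76 ± 0.38.

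**Figure D3:**
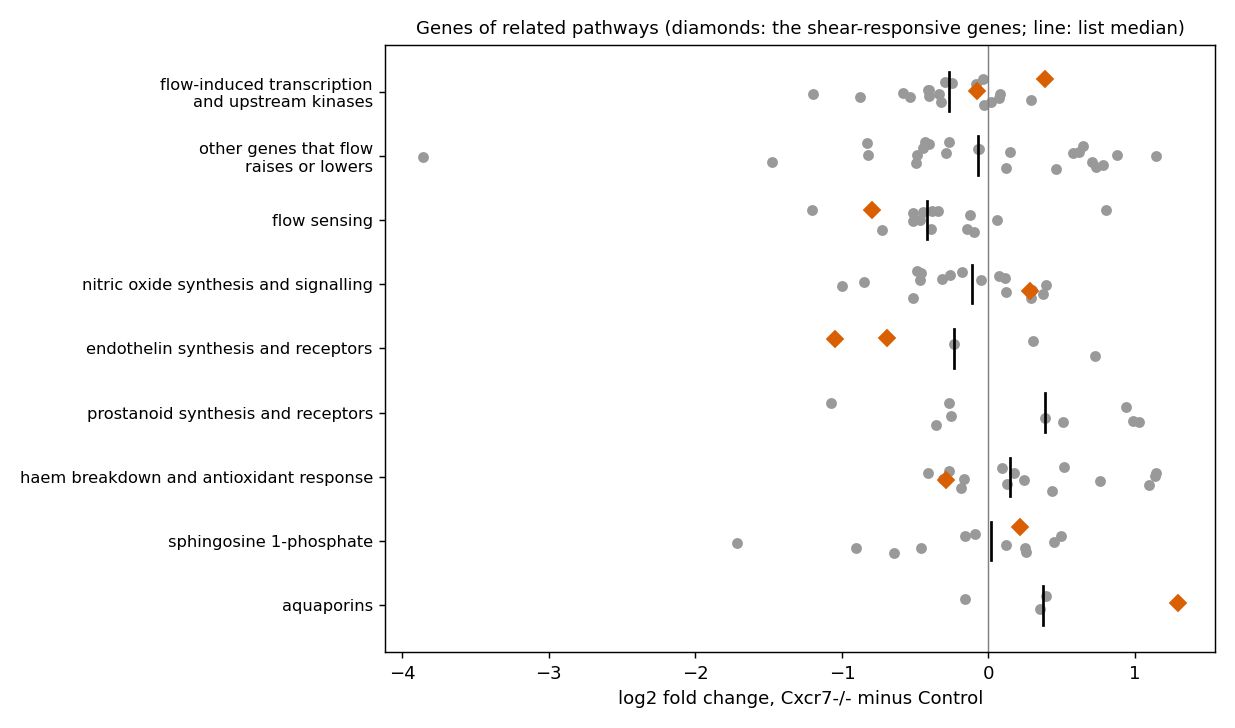
Log2 fold change, Cxcr7-/- minus Control, of every gene bright enough to test in 9 lists of related genes, with 1 point per gene, orange diamonds for the shear-responsive genes and a black line at each list's median. The flow sensing median lies at -0.42 with Piezo1 included, and Aqp1 and Ednrb lie on the higher side of their lists while Edn1 and Ece1 lie on the lower side.

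The arrays differed in quality values. The 3' to 5' signal ratio of the Actb controls was 15.5 and 11.7 in Cxcr7-/- leaflets and 20.2 and 19.1 in Control leaflets, so it moved with genotype. The Gapdh ratio was 12.6 and 8.20 in Cxcr7-/- leaflets and 12.7 and 24.2 in Control leaflets, highest in Control replicate 2. In that array Edn1, Ece1 and Piezo1 were also highest, and Aqp1 was lowest, at 5347. Klf2, Hmox1, the dimmer Klf4 probe set and the Ece1 probe set with overlapping pools were highest there too. The part of these ratios in the results was not tested. Median signals were 84.5 and 92.5 in Cxcr7-/- leaflets and 110 and 89.9 in Control leaflets. Valve interstitial markers were present, with a summed signal of 276442 and 287983 in Cxcr7-/- leaflets and 304602 and 211733 in Control leaflets. Of 5 measured lung airway markers, 2 were lower at an unadjusted p under 0.05, where 4.03% of all genes were. These were Scgb1a1 and Scgb3a2. Of the 5, 4 had negative log2 fold changes, where 49.7% of all genes did, and the median was -1.03. The only positive one was Epcam, at 0.33 ± 0.41. Scgb3a2 read 1067 and 696 in Cxcr7-/- leaflets and 3190 and 6476 in Control leaflets.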

How the data were processed

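Each deposited file holds linear intensity, 1 MAS5 signal per probe set, and Affymetrix Expression Console and MAS5 are named in the submitters' processing notes. Their versions were not stated. Per the labels' protocols, 50 ng of total RNA went through 2 cycles of amplification, which favours the 3' end of transcripts. Each array's trimmed mean was 500.003, so signals are relative to the array's total. The number of arrays limits the precision.

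Of 45101 probe sets 64 controls were set aside. The signal plus 22 (the 25th percentile) was put on the log2 scale, and the 22518 probe sets above the median of mean log2 values were kept, all 12 described here among them. The contrast between genotypes came from limma 3.58.1, run in R 4.3.3 (linear model, moderated variances with a trend on intensity, two-sided p, Benjamini-Hochberg over the probe sets kept), with 2 residual degrees of freedom. An exact permutation test of 2 against 2 arrays cannot go below p = 0.333, so none was run. Log2 fold changes are Cxcr7-/- minus Control on the log2(signal + 22) scale, with the standard error of the model.

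Of the probe sets, 34945 had 1 gene symbol, 932 several and 9160 none in the platform annotation. A gene in a list is its single-symbol probe set of highest mean. Named genes outside the 9 were up to 3 per list with the smallest unadjusted p, all genes of short lists, Ackr3, the nearest profiles to Aqp1 and markers that moved with the genes. Thbd, Cav1, Ptgis, Hba-a1, Alas2 and Slc4a1 were named after their values were seen, as were Tek and Pecam1. Epcam was also named outside that rule. The GAGACC motif was added later. The genes and lists were chosen with earlier results of these data known. Alternatives covered the pseudocount, filter, scaling, trend, replicate block, probe set summary and each array left out.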

Additional observations from a re-analysis of the deposited data

How the results depend on the processing

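Aqp1 stayed positive in all 14 alternatives, between 0.94 and 1.65 on the log2 scale. Its highest value, 1.65, came without Control replicate 1, from a fit that held 1 Control pool. In no alternative that kept all 4 arrays did it pass an adjusted p of 0.05 in limma. Of the other genes, 7 kept their sign in every alternative run and Klf2 did not: its log2 fold change was 0.063 with median centring, and between -0.65 and 0.50 with 1 array left out, positive at 0.50 without Cxcr7-/- replicate 2 and at 0.45 without Control replicate 2. The number of genes at an unadjusted p under 0.05 was 4 of 9, and it was 1 (Aqp1) with median centring, 2 (Aqp1 and Edn1) with no intensity trend, and between 2 and 4 with 1 array left out. Median centring raised the median of all log2 fold changes by 0.14, so differences on the lower side shrank by that amount. The gene median of -0.07 was between -0.53 and 0.20 with 1 array left out. It was positive at 0.20 without Control replicate 2, at 0.19 without Cxcr7-/- replicate 2, at 0.063 with median centring of all 9 genes and at 0.07 with the stricter filter, which left 8 genes.

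Over all kept probe sets, 0 passed at an adjusted p under 0.05 in limma (2279 at an unadjusted p under 0.05), and with 1 array left out between 0 and 673 did. Leaving out Control replicate 1 gave 673 and leaving out Cxcr7-/- replicate 2 gave 8. Deviations of same-numbered arrays from their genotype means had a weak negative correlation (r = -0.26 over 22518 probe sets), and no label pairs the arrays. A replicate block gave 0 calls over all probe sets and 3 of 9 genes at an unadjusted p under 0.05, and a crossed replicate block, chosen after seeing the data, gave 5 and 4. The cause of these changes was not tested. Hmox1, near the brightness filter, had a standard error of 0.41, above the median of 0.34 over all kept probe sets.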
